A study of Mus musculus with 2 samples.

Results

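Amino acids and several neurotransmitters cross cell membranes through solute carriers of the Slc1, Slc3, Slc6, Slc7, Slc36, Slc38 and Slc43 families. Members were the non-control probes whose gene name on the array begins with one of these family names followed by "a" and a digit. The rule found 83 of 55681 probes, which stand for 63 of 23416 named genes. Of these genes 62 encode carriers and 1, Slc7a6os, lies on the strand opposite Slc7a6 and encodes none. Slc7a6os gave signals of 289 with vehicle and 202 with cholic acid, a scaled log2 difference of 0.00, and is left out of the counts of carriers.

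The study used wild-type male mice. Segments of their intestine were incubated either with 0.5 µM cholic acid, which the liver makes from cholesterol and secretes in bile, or with vehicle, which was ethanol at 0.25% plus DMSO at 0.05%. Incubation lasted 2 h, and the RNA came from the epithelial cells. Its title names the search for target genes of the nuclear receptor PPARα that respond to bile acids. RNA of each treatment was hybridised to 1 one-colour microarray. The labels give neither the position of the segments along the gut nor the number of mice, and they state the solvent for the vehicle alone. With 1 array in each group no test between treatments was possible and no p-value is given, so the spread between mice is unknown.

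In the small intestine, amino acids enter the enterocyte at the brush border, its apical side, mostly with sodium or protons or in exchange for other amino acids, and leave for the blood at the basolateral side. Several Slc7 carriers are light chains that reach the membrane only when bound to a heavy chain of the Slc3 family. The rBAT heavy chain pairs with b0,+AT at the apical side, and the 4F2hc heavy chain pairs with LAT and y+LAT light chains at the basolateral side. Many Slc6 and Slc1 members are instead best known from nerve and glia, where they clear transmitters from the synapse.

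Each carrier was read by 1 or more probes of 60 bases. The first 30 bases, from the 5′ end, of the probes on which the apical and basolateral exchangers and the carriers with the largest differences rest are given here, all in lower case. Positions are those of the whole probe on mm9, as the array files give them.
Slc3a1, chr17:85463142-85463201, plus strand: tggttctgaattttggagaatcatcaactg
Slc7a9, chr7:36250920-36250979, plus strand: ccatcactcgtagcccaaagctgtgatcaa
Slc6a19, chr13:73818718-73818777, minus strand: ctgaagagggcatatttatgcacacatgta
Slc3a2, chr19:8782189-8782248, minus strand: gagggcttgctgttacagttcccctttgtg
Slc7a7, chr14:54989166-54989225, minus strand: ctctttcctttacaagggccaacaatgctc
Slc7a8, chr14:55341137-55341196, minus strand: tatttcttttggattttttaatgtatggcg
Slc38a2, chr15:96518491-96518550, minus strand: aaggttccaaatgaatttcaggccaaattc
Slc43a3, chr2:84797987-84798046, plus strand: tttgatgatccagtatctacaaagactgcc
Slc6a3, chr13:73715973-73716032, plus strand: tggctgagaagaatcaggtttaccatctcc
Slc7a5, first probe, chr8:124430996-124431055, minus strand: tagtcttcgccacctacttgctcaagccgg
Slc7a5, second probe, chr8:124405136-124405195, minus strand: gtggttataatgtcttttactattgtatta

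A probe was counted as detected where the scanner software set its well-above-background flag. Of the 83 member probes, the vehicle array detected 41 and the cholic acid array also 41. Both arrays detected 39 of them, or 47%, against 40.6% of all 55681 probes. By gene, 31 of the 62 carriers were detected on both arrays, 1 on the cholic acid array alone, 1 on the vehicle array alone and 29 on neither. Counting Slc7a6os, 50.8% of the 63 member genes were detected on both arrays, against 54.4% of all named genes, so the comparison by gene runs the other way from that by probe. None of the spots was saturated.

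Signals below are the processed signals of each array as deposited, with probes of a gene averaged on the log scale. The cholic acid array was the dimmer of the pair: over the probes detected on both arrays its 75th percentile was 741, against 1060 for vehicle. Each array was therefore divided by its own percentile before subtraction, which adds 0.52 to every log2 difference of cholic acid minus vehicle. After this scaling the median difference over all 12727 genes detected on both arrays was 0.08. A gene was counted as higher or lower where its scaled signals were at least 2-fold apart.

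By this limit 1 of the 31 carriers was higher on the cholic acid array, beside 6.51% of all genes, and 0 were lower, beside 2.06% of all genes, or 8.57% in either direction. The differences of the 31 carriers ran from -0.95 to 1.23 around a median of 0.04, with 17 above 0 and 14 below, where 42.8% of all genes were below 0. This balance depends on the scaling: 21 of the 31 were below 0 when arrays were scaled on all probes, 19 with median centring and 18 with quantile normalization. Below the median of all genes lay 17 of the 31. Scaling on all probes and median centring move every gene alike and cannot change this count. With quantile normalization it was also 17. To set a single gene beside its surroundings, each carrier was also compared with the 1000 genes nearest to it in signal. Their differences had a robust SD between 0.37 and 0.57, a spread across genes on this pair of arrays and not between animals. Beyond 2 of these SDs from its neighbours' median lay 2 of the 31 carriers, Slc38a2 and Slc7a8, both lower. The share of all genes that lies so far from their own neighbours is not given, so this count is no result about the carriers. Without 1 discrepant spot of the Slc7a8 probe this count was 1, Slc38a2.

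**Figure D1:**
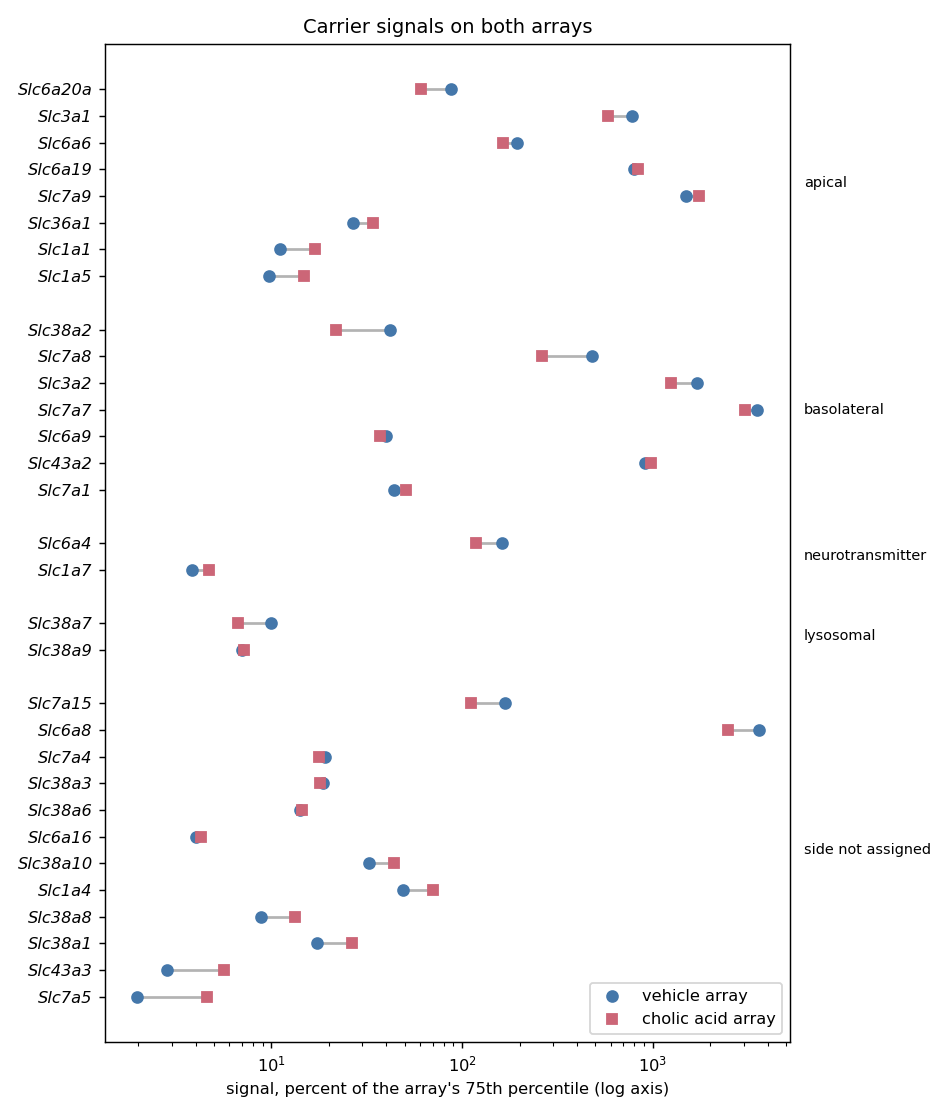
Signal of the 31 carriers detected on both arrays, as a percent of each array's own 75th percentile on a log axis, with 1 circle for the vehicle array and 1 square for the cholic acid array per gene. Genes are grouped by side of the cell; the widest gaps belong to Slc7a5 (2.34-fold), Slc43a3 (1.998-fold), Slc38a2 (1.94-fold) and Slc7a8 (1.82-fold).

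At the apical side 8 of 10 carriers were detected on both arrays. Their median difference was 0.14, with 5 above 0 and 3 below, and none reached 2-fold. This median was -0.09 when arrays were scaled on all probes and -0.10 over the brighter probes, so no direction can be given for the group.

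The apical cystine and dibasic amino acid exchanger was detected through both of its chains. Slc3a1, the rBAT heavy chain, gave 8250 with vehicle and 4320 with cholic acid. Its scaled log2 difference was -0.42, lower by 1.33-fold. Slc7a9, the b0,+AT light chain, gave 15900 with vehicle and 12900 with cholic acid, a scaled difference of 0.21. The heavy chain was thus lower and the light chain slightly higher after scaling, although both raw signals were lower and the sign of Slc7a9 turned under 1 of 7 other scalings.

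Slc6a19 encodes B0AT1, the main brush border carrier of neutral amino acids. It gave 8470 with vehicle and 6170 with cholic acid, and its scaled difference of 0.06 turned below 0 under 2 of 7 other scalings. Slc6a20a, a carrier of proline and other imino acids, gave 924 with vehicle and 453 with cholic acid. It had the lowest scaled difference of the apical group, -0.51, and stayed below 0 under each scaling. Slc6a6, the taurine carrier, gave 2060 with vehicle and 1210 with cholic acid, a difference of -0.25.

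The apical carriers with the highest differences were those of acidic amino acids and glutamine. Slc1a1, the glutamate and aspartate carrier EAAT3, gave 118 with vehicle and 126 with cholic acid as means over its repeated spots, a scaled difference of 0.61. Slc1a5, the glutamine exchanger ASCT2, gave 102 and 110 in the same order. Its scaled difference was 0.62, the mean of 0.50 and 0.75 for its pair of probes. Slc36a1, the proton-coupled carrier PAT1, gave 285 with vehicle and 252 with cholic acid, a difference of 0.34. These 3 genes were above 0 under each of the 7 other scalings, down to 0.11 for Slc36a1. In the order named they lay 0.89, 0.92 and 0.72 SDs above the median of their neighbours in signal. Not detected on either array were Slc6a14, a carrier of neutral and cationic amino acids, and Slc6a20b, the mouse paralogue of Slc6a20a.

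At the basolateral side 7 of 9 carriers were detected on both arrays. Their median difference was -0.21, with 2 above 0 and 5 below, and this median stayed below 0 under each of the 7 other scalings, between -0.44 and -0.24. None was 2-fold lower with the scaling used here.

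The exchangers built on 4F2hc were read through their heavy chain and light chains. Slc3a2, the 4F2hc heavy chain, gave 18100 with vehicle and 9210 with cholic acid. Its scaled difference was -0.46, lower by 1.37-fold. Slc7a7, the y+LAT1 light chain through which dibasic amino acids leave the cell, gave 37500 with vehicle and 22600 with cholic acid, a difference of -0.21. Slc7a8, the LAT2 light chain for neutral amino acids, gave 5086 with vehicle and 1954 with cholic acid, a difference of -0.86, lower by 1.82-fold. All 3 were below 0 under each scaling, and Slc7a8 lay at -2.02 SDs from the median of its neighbours, or at -1.86 SDs without 1 low spot described next. Slc7a6, the y+LAT2 light chain, was not detected on either array.

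Slc7a8 was spotted 10 times on each array, which gives a measure of error within an array. Of its 10 spots, 9 lay between 5100 and 5540 on the vehicle array and between 2020 and 2260 on the cholic acid array. The remaining spot, at the same place on both arrays, read 3010 and 801 and carried no flag. Spot by spot the 9 gave scaled differences from -0.85 to -0.76, mean -0.80, and the low spot gave -1.39. The authors' deposited table holds 2546 and 976 for this probe. On that table's scale the low spot comes to 2545 and 976, and the mean of all spots to 4274 and 2395. The authors' values for Slc7a8 thus stand at the low spot, and their difference of -1.38 is past 2-fold, whereas with the scaling used here neither the mean of the spots nor any of the other 9 reached it; scaled on all probes, the mean was at -1.09. Slc1a1, also spotted 10 times, read from 112 to 124 on the vehicle array, leaving out 1 spot of 142 flagged as an outlier, and from 115 to 144 on the cholic acid array. Its ranges before scaling overlap, and after scaling all 9 pairs of unflagged spots were higher with cholic acid, by 0.52 to 0.77.

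**Figure D2:**
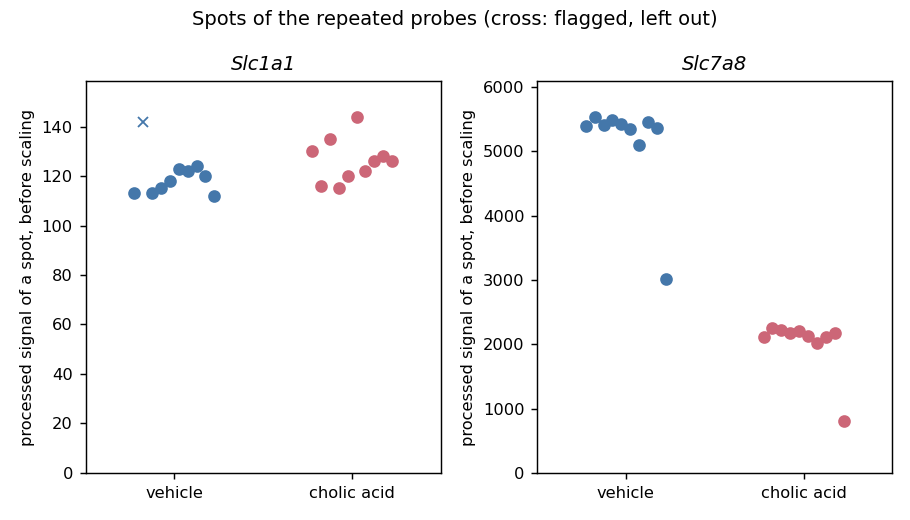
Processed signal of each spot of the repeated Slc1a1 and Slc7a8 probes before scaling, with vehicle at the left and cholic acid at the right of each panel and a cross for the flagged spot. The Slc1a1 spots overlap between arrays, whereas every Slc7a8 spot of the cholic acid array, 801 to 2260, is below every vehicle spot, 3010 to 5540.

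Slc38a2 encodes SNAT2, a sodium-coupled carrier known to be induced when amino acids run short. Its single probe gave 446 with vehicle and 161 with cholic acid, a scaled difference of -0.95. That is 1.94-fold lower, just inside the 2-fold limit, and it lay at -2.42 SDs from the median of its neighbours. Other processing put it between -1.18 and -0.68, and it passed 2-fold under 6 of the 7 other scalings. Slc6a9, the glycine carrier GLYT1, gave 425 with vehicle and 274 with cholic acid, a difference of -0.12, over a pair of probes that overlap on the genome.

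The remaining basolateral carriers were close to 0. Slc7a1, the cationic amino acid carrier CAT1, gave 463 with vehicle and 375 with cholic acid, a difference of 0.21. Slc43a2, the LAT4 exit route for branched-chain amino acids, gave 9690 and 7230, a difference of 0.09. Both signs turned under other scalings, for Slc7a1 under 1 and for Slc43a2 under 2 of 7. Slc43a1, the LAT3 carrier of large neutral amino acids, was not detected on either array.

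**Figure D3:**
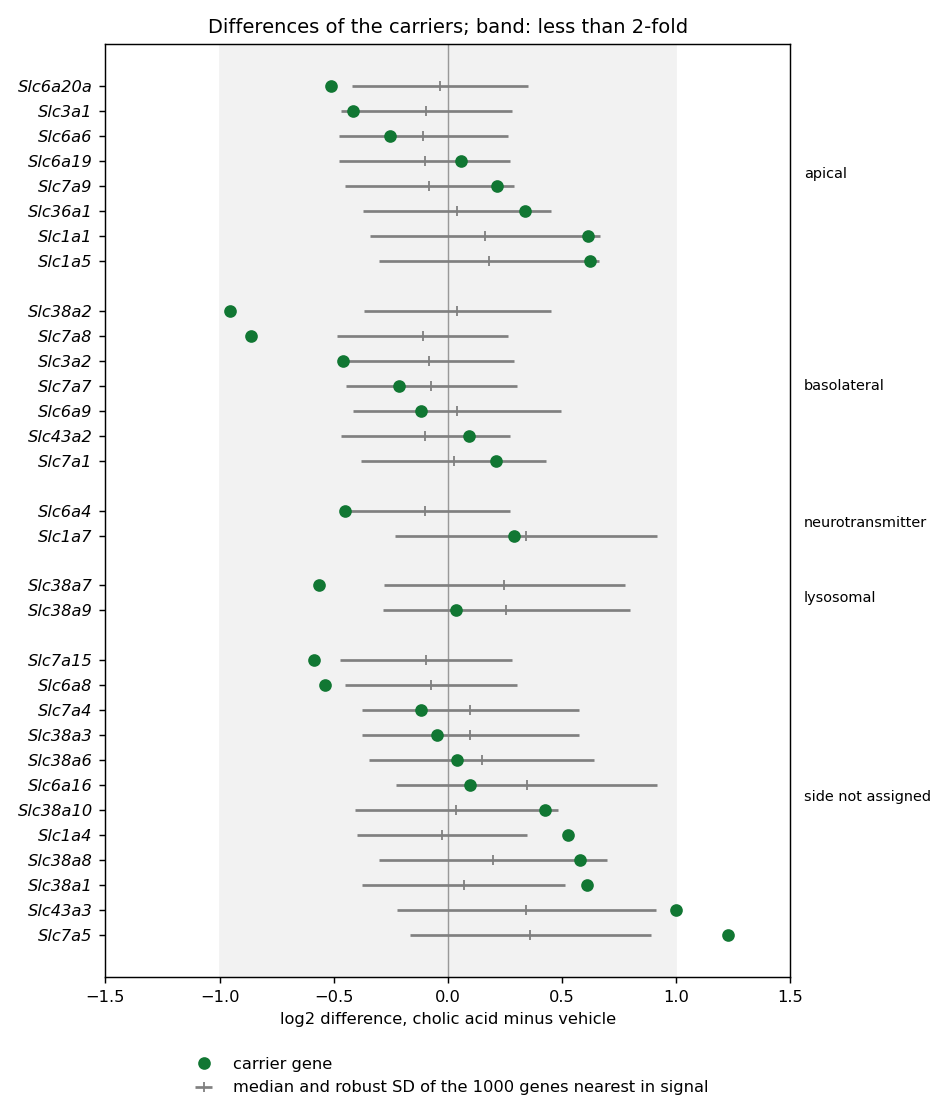
Scaled log2 difference, cholic acid minus vehicle, of the 31 carriers as circles, with the median and robust SD of the 1000 genes nearest in signal as grey bars and the range under 2-fold as a band. Slc38a2 (-0.95) and Slc7a8 (-0.86, but -0.80 without 1 low spot, which is under 2 SDs) lie farthest below their neighbours' median, and Slc7a5 (1.23) alone lies outside the band.

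Among the carriers with no assigned side, Slc7a5 was the carrier counted as higher. It encodes LAT1, an exchanger of large neutral amino acids linked to cell growth. Its first probe gave 20.8 with vehicle and 34 with cholic acid, a scaled difference of 1.23 or 2.34-fold. The second probe gave 15.9 with vehicle, where it was detected, and 5.09 with cholic acid, where it was not. The probes disagree in direction, both are close to the detection limit, which began at 14.6 with vehicle and 11.2 with cholic acid, and the mean of both was 0.05. Slc43a3, a carrier of purine nucleobases in a family of amino acid carriers, lay just under the limit at 30 with vehicle and 41.9 with cholic acid, a difference of 1.00 or 1.998-fold.

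Slc1a4, the exchanger ASCT1 for serine and other small neutral amino acids, gave 519 with vehicle and 523 with cholic acid, a scaled difference of 0.53. Slc7a11, the cystine-glutamate exchanger xCT, was not detected on either array. The 4 detected Slc1 genes were all above 0, with a median of 0.57 that stayed above 0 under each scaling, although Slc1a7 turned below 0 under 3 of 7. Their raw signals differed little, and the scaling adds 0.52 of this. Against the genes nearest in signal 3 were above and 1, Slc1a7, below, and 3 of the 4 lay within 1 SD. Both Slc3 heavy chains were below 0 under each scaling. The 7 detected Slc6 carriers had a median of -0.25, with 5 below 0, and this median was below 0 under each scaling. For Slc7 the median over 7 detected carriers was -0.12 and turned above 0 with normexp background correction. The Slc38 median of 0.04 over 8 genes turned below 0 under 6 of 7 other scalings, so neither family has a settled direction.

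Slc6a8, the creatine carrier, gave 38200 with vehicle and 18400 with cholic acid, a difference of -0.54 that stayed below 0 under each scaling. Slc38a1, the glutamine carrier SNAT1, had a difference of 0.61 over 2 detected probes at 0.44 and 0.78. Slc38a10, a widely expressed member of its family, gave 345 and 324, a difference of 0.43. Slc7a15, a rodent light chain gene, was lower with each of its 3 probes, at -0.48, -0.49 and -0.79. The orphan members Slc6a16, Slc7a4 and Slc38a6 and the glutamine carrier Slc38a3 lay between -0.12 and 0.10. Each of them turned sign under at least 1 scaling. Slc38a8, a neuronal and retinal glutamine carrier, was at 0.58.

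In the lysosome, Slc38a7 carries glutamine and asparagine and Slc38a9 senses arginine for the growth kinase complex mTORC1. Slc38a7 gave 105 with vehicle and 49.6 with cholic acid, a difference of -0.57. Slc38a9 gave 74.2 and 53.1 on the probe that both arrays detected, a difference of 0.03. Another Slc38a9 probe gave 3.27 with vehicle and 19.9 with cholic acid, where alone it was detected, so the probes of this gene do not give one picture. Slc36a4, the proline and tryptophan carrier PAT4, was detected on the cholic acid array alone and its bound was under 2-fold. Among genes detected on that array alone, 48.8% had a bound of at least 2-fold.

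**Figure D4:**
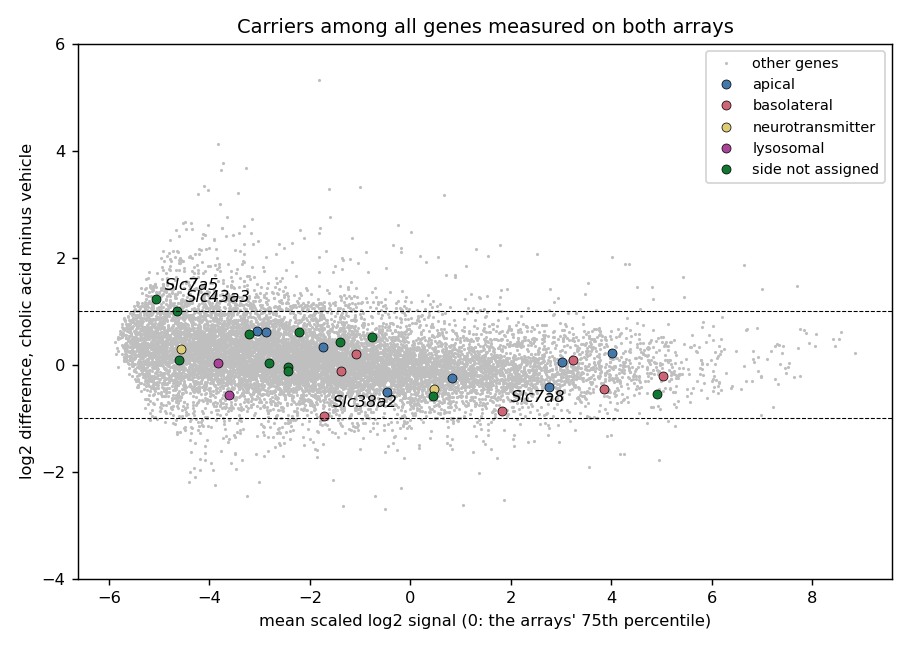
Difference against mean scaled log2 signal for the 12727 genes detected on both arrays, as grey points, with the 31 carriers coloured by side and dashed lines at 2-fold. Dim genes spread further and sit higher than bright ones; the carriers lie within the cloud, with Slc7a5 above the upper line and Slc38a2 and Slc7a8 near the lower one.

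The neurotransmitter carriers were mostly not detected. Of 15 genes, 12 were detected on neither array, among them the GABA carriers Slc6a11 and Slc6a13, the noradrenaline carrier Slc6a2, the glycine carrier Slc6a5 and the glial glutamate carriers Slc1a2 and Slc1a3. Slc6a4, the serotonin carrier, which takes up serotonin released in the gut wall, gave 1710 with vehicle and 875 with cholic acid, a difference of -0.45 that stayed below 0 under each scaling. Slc1a7, a glutamate carrier known from retina, gave 40.7 and 34.8, a difference of 0.29. Slc6a3, the dopamine carrier, gave 113 with vehicle and 11.7 with cholic acid, where it was not well above background. It was at least 6.75-fold lower, where the bound sets the vehicle signal against the higher of the cholic acid array's lowest detected signal and the probe's own signal there. Of the genes detected on the vehicle array alone, 19.5% had a bound of at least 2-fold. Slc6a3 rests on 1 probe with 1 spot on each array. Of 10 nerve and glia markers, 7 were detected on neither array, among them Uchl1 and Sox10. Elavl4 was detected on both, and Ret on the cholic acid array alone. The signals of all 10, undetected ones included, summed to 13.2% of the 75th percentile with vehicle and 23.3% with cholic acid.

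Other undetected members included Slc1a6, Slc6a7, Slc6a12, Slc6a15, Slc6a17, Slc6a18, Slc7a2, Slc7a3, Slc7a10, Slc7a12, Slc7a13, Slc7a14, Slc36a2, Slc36a3, Slc38a4, Slc38a5 and Slc38a11. Member probes undetected on both arrays read 2.99 to 15 with vehicle and 2.75 to 12.3 with cholic acid, close to the negative controls, whose medians were 3.33 and 3.1. At this level the software's surrogate values set the scaled difference, whose median over these probes was 0.41, so no difference is given for them.

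Genes that work beside these carriers were read from lists. Of 11 partners and neighbouring steps of amino acid absorption, 10 were detected on both arrays. Their median difference was -0.25 and was below 0 under each scaling. By 2-fold or more 0 were higher and 1 lower, beside 6.51% and 2.06% of all genes. The lower gene was Slc15a1, the brush border peptide carrier PepT1, at 6430 with vehicle and 1340 with cholic acid, a difference of -1.75. Anpep, an aminopeptidase that releases amino acids there, was at 0.40 and turned below 0 under 2 of 7 other scalings.

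Another list held 15 further carriers of amino acids, peptides and transmitters, of which 7 were detected on both arrays. All 7 were below 0, with a median of -0.49 that stayed below 0 under each scaling, although Slc18a3 turned above 0 under 1. Of the 7, 1 was lower by 2-fold or more, Slc15a1, beside 2.06% of all genes. Slc16a10, the basolateral aromatic amino acid carrier, was at -0.49 and all 3 of its probes were below 0. The lysosomal carriers Slc66a1 and Ctns, for cationic amino acids and cystine, were at -0.50 and -0.52. Slc15a2, the high-affinity peptide carrier, gave 3.39 with vehicle, not well above background, and 37.4 with cholic acid, at least 3.66-fold higher.

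All 18 genes of the amino acid response outside the carriers, many of them targets of the transcription factor ATF4, were detected on both arrays. Their median was 0.02 and changed sign under 5 of 7 other scalings. Of the 18, 2 were higher and 2 lower, beside 6.51% and 2.06% of all genes. Higher were Phgdh, the first enzyme of serine synthesis, at 1.20, and Psat1, the next, at 1.14, which stayed past 2-fold under 3 and 2 of the 7 other scalings. Lower were Chac1, which breaks down glutathione, at -1.67, past 2-fold under 6 of 7, and Eif4ebp1, a translation repressor, at -1.15, past it under all 7. Asns, asparagine synthetase, was at 0.25 and Atf4 itself at -0.02.

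For mTORC1 amino acid sensing 19 of 21 genes were detected on both arrays, with a median of -0.11. Of the 19, 0 were higher and 1 lower, beside 6.51% and 2.06% of all genes. The lower gene was Fnip1, a partner of folliculin, at -1.37, and folliculin itself, Flcn, was at -0.94. Castor1, an arginine sensor, was detected on the cholic acid array alone at 25.2 against 3.51, at least 2.47-fold higher. Of 18 enzymes of glutamine, glutamate, arginine and proline metabolism, 15 were detected on both arrays with a median of -0.02. None was 2-fold apart in either direction, beside 8.57% of all genes. Glud1, glutamate dehydrogenase, was the highest at 0.62, and Nags, which makes the activator of the first urea cycle enzyme, the lowest at -0.85.

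RefSeq promoters on GRCm38.p6, from 250 bases before to 50 after each start, were found for 45 member genes, 66 promoters in all, and searched on both strands. The direct repeat bound by PPAR, AGGTCA followed by any 1 base and AGGTCA again, was in 0 of the 66 and in 0.0396% of all 32851 promoters. A looser spelling that contains it, with AGGNCA in both places, was likewise in 0, against 0.381% of all. Both spellings are so rare over all promoters that 0 would be the usual count in any 66, so the search cannot set the members apart. The ATF4 and C/EBP element, spelt TGATGNAA, was in 4 of the 66, promoters of Slc1a4, Slc7a7 and Slc7a11, beside 3.97% of all. These are matches of letters in a short window and say nothing of binding.

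Other features of the samples differed between the same arrays. All 12 enterocyte markers were detected on both arrays, with a median difference of -0.35 and a summed level of 137600% of the percentile with vehicle and 141400% with cholic acid. Of 6 distal gut markers all were detected, with a median of 0.88 and a sum of 807% against 1037%, led by the ileal bile acid genes Fabp6 at 5.32 and Slc10a2 at 2.26, although Cubn was at -0.94. For 7 proximal gut markers, 6 detected on both, the median was -0.35 and the sum 34200% against 24320%, with Onecut2 at -2.30 and S100g, against the rest, at 2.61. All 13 T cell markers were detected, with a median of 0.87 and a sum of 11070% against 17090%, although Cd4 was at -0.71. The 9 B and plasma cell markers, 7 detected on both, had a median of 1.45, with Ms4a1 not well above background on the vehicle array, and their sum was 1206% against 1413%. Enteroendocrine markers, 11 of 12 detected, had a median of 0.37 and a sum of 4625% against 5932%. Smooth muscle markers, 5 of 7, had a median of 0.69 and a sum of 90.6% against 112%, with Myh11 and Des detected on neither array. Of 8 pancreatic acinar markers 3 were detected on both, and 4, including Amy2a5 and Cpa1, on neither, with a sum of 42.9% against 29.4%. Pnlip was detected with vehicle alone, at 43.2 against 2.86, at least 2.69-fold lower with cholic acid. Clps was at -1.09 and Ctrb1 at -0.21, whereas Cela1 went the other way at 0.98. Sums cover every gene of a list, detected or not. Some lists share genes: Gcg, Pyy and Nts are both distal gut and enteroendocrine markers. Apoa4, Fabp1 and Lct are both enterocyte and proximal gut markers. Whether the bile acid treatment itself moved Fabp6 and Slc10a2 was not tested. The part of these features in the carrier differences was not tested, and in bulk RNA fewer cells of a type and less RNA per cell cannot be told apart.

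**Figure D5:**
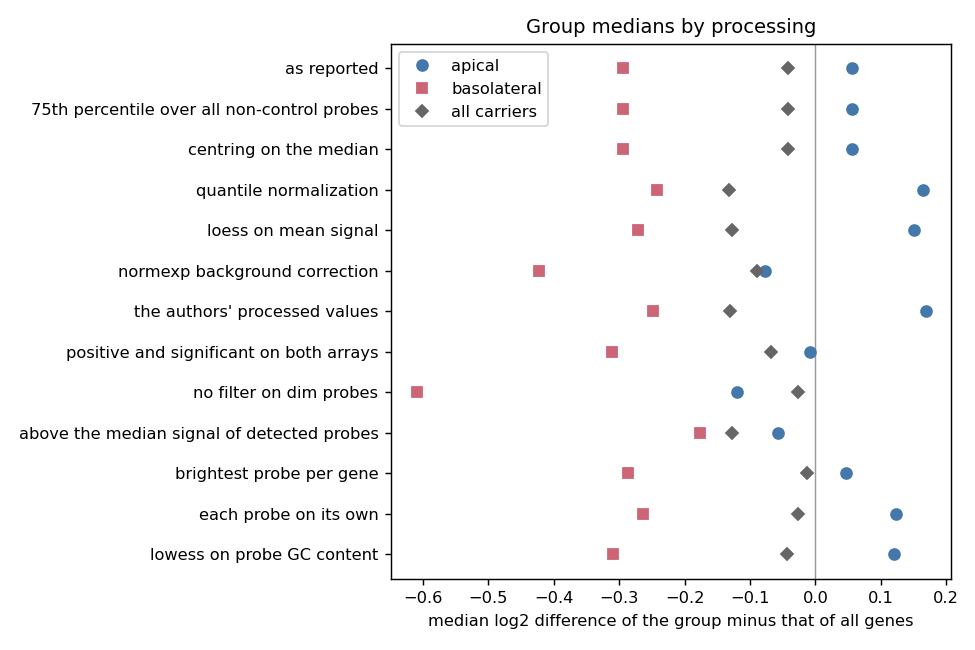
Median log2 difference of the apical, basolateral and all carriers minus that of all genes, for the processing as reported and each alternative, 1 row per setting. The basolateral median lies below that of all genes in every row, from -0.61 to -0.18, whereas the apical one lies on either side of 0. All genes are not matched for signal: against the genes nearest in signal the basolateral gap was -0.16 as reported.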

How the data were processed

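The authors deposited 1 scanner file per array, in which the processed signal is an intensity after background subtraction and spatial detrending, where dim spots carry a surrogate value, per the file headers. Flags for each spot, such as well above background, stand in other columns of the same deposited files. The arrays are Agilent mouse arrays with mm9 probe positions, read with Feature Extraction 10.7.1.1 per the file headers and 9.5.1.1 per the submitters' processing notes. A further table from the authors gives intensities of 55681 probes. The median of either column is 10.09. Sorted, the columns lie within 0.024% of each other, and the Pearson correlation of their log2 values with the scanner's across probes is 0.99987 and 0.99984, which points to quantile-normalized values on a linear scale. How that table was made is not given in the sources used here.

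Of 62976 spots per array, 124 and 119 with an outlier flag were left out, and repeated spots were averaged. Each array's log2 signals were centred on the 75th percentile of probes detected on both arrays, and a gene is the mean of its probes detected on both. Genes were named from the array files with RefSeq symbols. A gene detected on 1 array has only a bound. With 1 array per treatment no test was possible. The scanner's error model gave a median of 10% for member signals with vehicle and 10.1% with cholic acid, and log2 differences between single spots of 226 repeated probes had a median SD of 0.11. The number of arrays limits the precision.

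Genes named with values were every carrier past 2-fold, fixed sets by side and role, and the 3 brightest of each family. The other detected carriers are given for completeness. A few items are not reported here. Members, sides and lists were chosen with earlier results of these data known. Calculations used Python 3.11.15 with numpy 2.4.6, pandas 2.3.3 and statsmodels 0.14.6, and limma 3.58.1 in R 4.3.3 for normexp background correction with an offset of 50. They were tested on simulated data.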

Additional observations from a re-analysis of the deposited data

How the results depend on the processing

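No paired analysis was possible because each treatment has 1 array. Scaling moved the median of all genes by -0.23 to 0.10, and dropping the filter on dim probes by 0.32. The split of all genes past 2-fold was 829 higher and 262 lower as reported, against 419 higher and 537 lower with the 75th percentile over all probes.

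The count of carriers 2-fold higher, 1 as reported, was 0 with the percentile over all probes, quantile normalization, loess, normexp, the authors' values, the brighter probes, a 3-fold limit and lowess on probe GC content, the last of which was chosen after seeing the data. It was 3 with the positive-and-significant filter and 5 with no filter or a 1.5-fold limit. The count 2-fold lower, 0 as reported, was 1 with median centring, quantile, loess and GC content, 2 with the percentile over all probes, the authors' values and no filter, and 3 with positive-and-significant probes or a 1.5-fold limit. The cause was not tested.

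The median of all carriers was -0.19 with the percentile over all probes, -0.10 with median centring, -0.20 with quantile normalization and with the authors' values, -0.17 with loess and over brighter probes, -0.090 with GC content and 0.37 with no filter. The apical median was -0.092 with the percentile over all probes, 0.0027 with median centring, 0.28 with no filter and -0.10 over brighter probes. The basolateral median was -0.44 with the percentile over all probes, -0.35 with median centring and -0.36 with GC content. Carriers detected numbered 62 with no filter and 20 over brighter probes.

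Of 22 named carriers detected on both arrays, 18 kept their sign in every setting that measured them, 11 for 14 of the genes and 10 for the 4 that the brighter-probe filter removed (Slc1a1, Slc1a5, Slc43a3 and Slc7a5). The exceptions were Slc43a2, Slc6a19, Slc7a1 and Slc7a9. For a carrier with 1 probe, the filters and the choice of probe return the reported value, so only the 7 other scalings could turn its sign. Slc7a5 ran from 0.05 to 1.23 and Slc7a8 from -1.38 to -0.83, or -0.80 without its low spot, an exclusion chosen after seeing the data. Dim signal limits Slc7a5, Slc43a3, Slc36a4 and Slc38a9, and 29 carriers lay below detection.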
